A study of Mus musculus with 15 samples.

Results

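The genes described here are the adrenergic receptors Adrb1, Adrb3, Adra1a, Adra1b and Adra2b, the receptor kinases Grk2 and Grk5, and the arrestins Arrb1 and Arrb2. They were chosen by symbol, through the transcript accession of each array probe and including older names such as Adrbk1 for Grk2. Of these 9 genes, 7 were found among the 18350 genes that the array probes named, with 14 of the 41174 probes. No probe was matched to Adrb3 or Arrb2, which were not analysed here.

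Adrenergic receptors bind noradrenaline and adrenaline, the transmitters of the sympathetic nerves and the adrenal gland. In the heart, beta receptors act through the G protein Gs, adenylyl cyclase, cAMP and protein kinase A to raise the rate and force of the beat, and alpha1 receptors act through Gq and phospholipase C. G protein-coupled receptor kinases (GRKs) phosphorylate receptors that have bound an agonist, and arrestins then bind them, uncouple them from the G protein and take part in their removal from the surface. Methamphetamine releases catecholamines from nerve endings.

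RNA from hearts of C57BL/6 mice was measured with 1-colour Agilent arrays, with 1 array for each mouse. The mice were 8 to 10 weeks old at the start and were injected intraperitoneally each week for 20 weeks (5 months) with methamphetamine (meth) in rising steps up to 40 mg/kg, or with PBS. The groups were male meth (n = 4), male PBS (n = 4), female meth (n = 4) and female PBS (n = 3). The males came from 2 independent trials, with 2 meth and 2 PBS mice from each, and the sample titles placed the females in trial 1. The question put to these genes was whether their RNA differed between meth and PBS hearts, in each sex.

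The 15 arrays lay on 4 slides. Slides 1 and 2 each held 1 array of every trial 1 group, slide 3 held the 4 trial 2 males, and slide 4 held female meth replicates 3 and 4 with female PBS replicate 3. The 75th percentile of the signal ran from 307 to 589 over the arrays and was at its highest on slide 4, where it was at least 438. The scanner software calls each spot well above background or not, by its own rule, and the call was met by 61.4% to 71.4% of probes per array. Levels below are log2 signals relative to each array's 75th percentile, so that 0 is the level of that percentile. Levels of different probes are not comparable with each other, since each probe has its own affinity.

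On all 15 arrays, 13 of the 14 probes met that call, and the Adra2b probe met it on 6. All 14 passed the filter of 3 arrays and were tested. Each gene is given by its brightest probe, with its other probes beside it. In males, 0 of the 7 genes passed the test between meth and PBS (limma, adjusted p under 0.05 over 28358 probes), where 1.11% of all probes passed. In females 0 of 7 passed, against 0.758% of all probes, and over both sexes 0 of 7 passed, against 2.65%. The difference between the male and the female response passed for 0 of 7 genes, against 0.138% of all probes. At an unadjusted p under 0.05 there was 1 of 7 member genes in males (against 12.8% of all probes), 0 in females (11.0%), 1 over both sexes (15.3%) and 0 for the difference in response (8.67%). By any of the 14 probes the counts were 1, 1, 1 and 0, with the second Adra1a probe the 1 in females. The test named in the study's methods was also run. Paired by replicate number, it gave 1 member probe in males at an unadjusted p under 0.05, Adrb1 A_52_P322181 (difference -0.05), beside 15.2% of all probes, and 0 in females, beside 9.93%. Unpaired, it gave 0 in either sex, beside 13.3% and 8.29%. After adjustment over all probes the paired form called 0 of all probes in either sex, so that its count of 0 members says nothing, and the unpaired form called 18 in males, 0 of them members, and 0 in females. The median log2 difference of the 7 genes over both sexes, Adra2b among them, was 0.02, and that of all 14217 tested genes was 0.00. A p that misses the threshold does not show that the levels did not differ, and the intervals below give the sizes the data allow. In whole heart RNA, fewer cells of a type and less RNA per cell cannot be told apart.

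**Figure D1:**
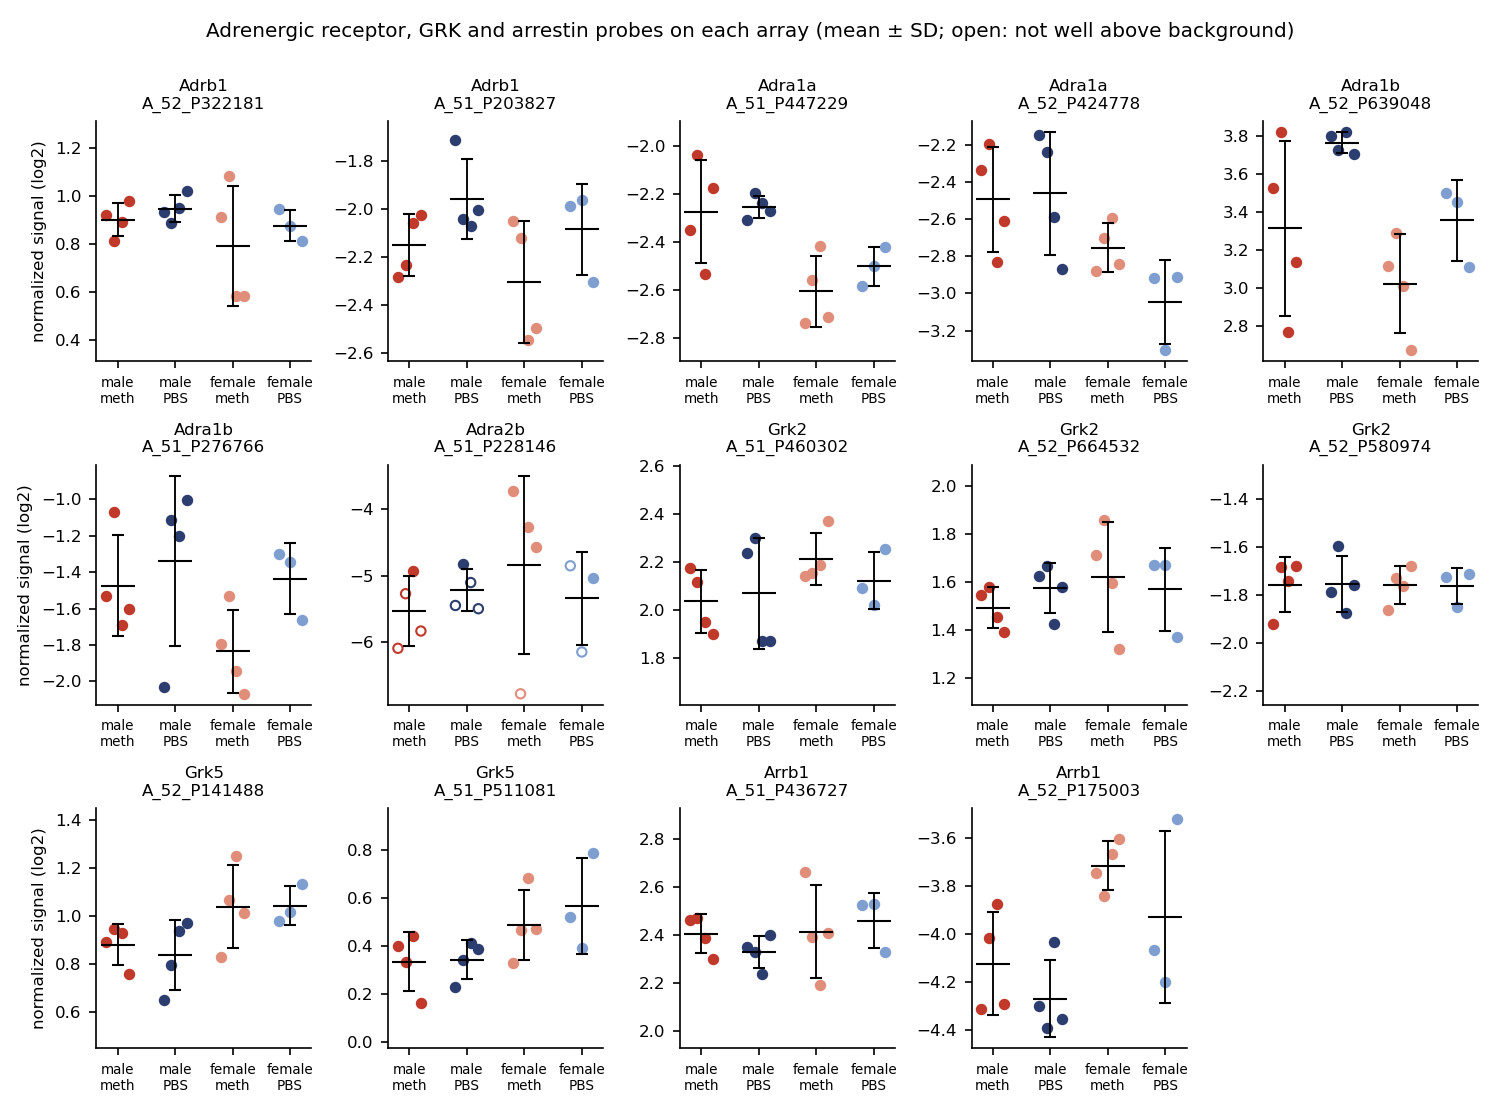
Normalized log2 signal of the 14 probes on each array, by group, with the mean and SD as bars and open points for arrays on which the probe was not well above background. Each panel has its own axis; the 4 male PBS values of Adra1b A_52_P639048 lie between 3.71 and 3.82, and those of male meth between 2.77 and 3.82.

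Adrb1 encodes the beta1 receptor, the main beta receptor of heart muscle cells. Its brighter probe (A_52_P322181) averaged 0.95 ± 0.06 in male PBS, 0.90 ± 0.07 in male meth, 0.88 ± 0.07 in female PBS and 0.79 ± 0.25 in female meth (mean ± SD), in that order from the highest. Neighbouring groups in this order overlapped. The fitted difference between meth and PBS was -0.05 in males (95% confidence interval -0.27 to 0.18) and -0.09 in females (-0.33 to 0.16). The female value ran from -0.185 to -0.017 with an array left out, and turned to 0.09 without slide 4. The female meth values fell into a pair at 0.91 and 1.09 on slides 1 and 2 and a pair at 0.59 and 0.58 on slide 4, where the female PBS array read 0.81. The second Adrb1 probe (A_51_P203827) gave -0.19 in males and -0.22 in females, and -0.21 over both sexes (adjusted p = 0.359). The male value was -0.38 with male arrays of trial 1 alone, -0.004 with those of trial 2 alone and -0.09 without male PBS trial 1 replicate 1. With another background correction the female value was -0.01 and that over both sexes -0.07. Its meth level was below PBS in 6 of 6 comparisons within a slide and sex, by between -0.57 and -0.004. For the brighter probe it was below PBS in 5 of 6. How often other probes of the array reach such counts was not computed. Over the 15 arrays the probes had a Pearson r of 0.75.

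Adra1b, an alpha1 receptor coupled to Gq, had the lowest unadjusted p of the member genes for meth against PBS, with its brighter probe (A_52_P639048). Male PBS hearts read 3.80 and 3.73 in trial 1 and 3.82 and 3.71 in trial 2. Male meth hearts read 3.53 and 3.82 in trial 1 and 2.77 and 3.14 in trial 2. The trial 2 meth males and 1 trial 1 meth male were thus below every PBS male. The other trial 1 meth male was at the PBS level, and the groups overlapped. Female PBS hearts read 3.50, 3.46 and 3.11, and female meth hearts 3.12, 3.29, 3.01 and 2.68. The female groups also overlapped, through the PBS array on slide 4.

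From the highest, the Adra1b group means were 3.76 ± 0.06 in male PBS, 3.36 ± 0.21 in female PBS, 3.31 ± 0.46 in male meth and 3.02 ± 0.26 in female meth. Male PBS did not overlap with female PBS, the next group, and the other neighbours overlapped. The fitted difference between meth and PBS was -0.45 in males (95% confidence interval -0.82 to -0.08, adjusted p = 0.284), or 73.2% of the PBS level. In females it was -0.33 (-0.74 to 0.07, adjusted p = 0.569), or 79.4% of PBS. The female value was -0.455 without female PBS replicate 3 and -0.217 without female meth replicate 4. With the replicate block it was also -0.217. Over both sexes the fitted difference was -0.39 (-0.67 to -0.12, unadjusted p = 0.00896, adjusted p = 0.14), which did not pass. The male and female responses differed by -0.12 (-0.67 to 0.43).

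Within slides the Adra1b differences in males were -0.27 on slide 1, 0.09 on slide 2 and -0.81 on slide 3. In females they were -0.39 on slide 1, -0.16 on slide 2 and -0.27 on slide 4. The signal was therefore lower in meth in 5 of 6 comparisons within a slide and sex. That count is not particular to Adra1b. The brighter Adrb1 and Adra1a probes were also lower in 5 of 6, and the second Adra1a probe was higher in 5 of 6. The share of all probes with such a count was not computed. The male difference of the brighter Adra1b probe rested on trial 2: with male arrays of trial 1 alone it was -0.09, and with those of trial 2 alone -0.81 (adjusted p = 0.261). The second Adra1b probe (A_51_P276766) gave -0.14 in males (-0.61 to 0.34) and -0.40 in females (-0.91 to 0.11). The male value was -0.40 without male PBS trial 1 replicate 1, which read -2.03 beside -1.20 to -1.01 in the other male PBS hearts, and ran up to -0.01 without other single arrays. In males it was 0.27 with trial 1 arrays alone and -0.54 with trial 2 arrays alone, and it was lower in meth in 4 of 6 comparisons within a slide and sex. The Pearson r of the probes over the 15 arrays was 0.67.

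**Figure D2:**
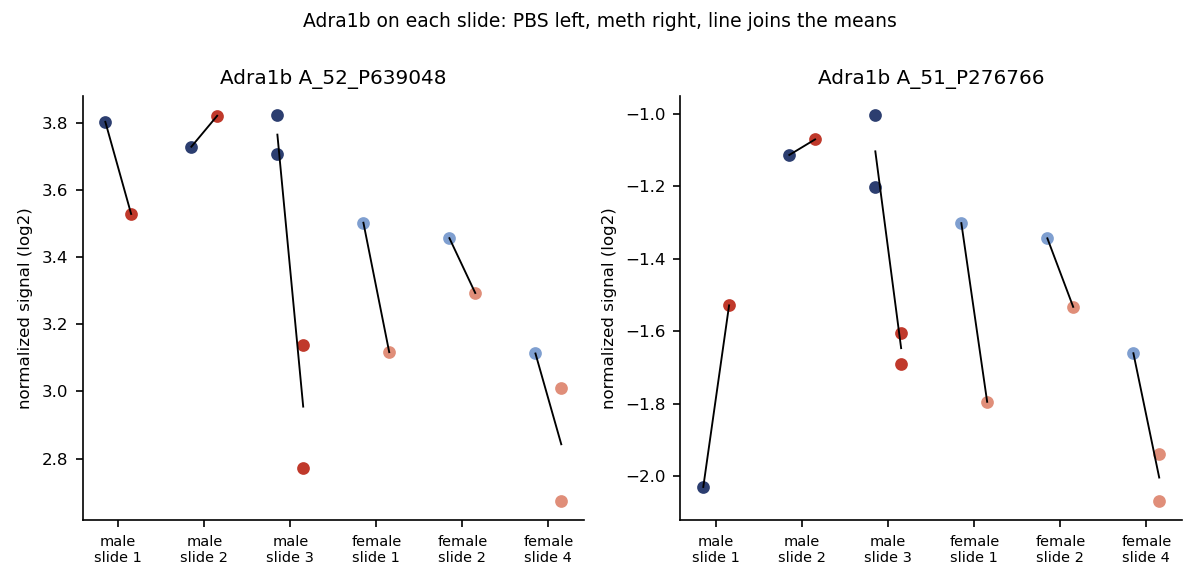
Normalized log2 signal of both Adra1b probes on each slide, PBS arrays at the left and meth arrays at the right of each pair, with a line joining their means. The male difference of A_52_P639048 is -0.81 on slide 3 and 0.09 on slide 2.

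The sequences upstream of Adra1b are shown because it had the largest difference between meth and PBS among the member probes well above background on all arrays. RefSeq promoter records on GRCm38.p6 were matched for 4 members, with 5 start sites, of which Adra1b has a pair on the minus strand of chromosome 11. The 250 bases before each start are given 5′ to 3′, at chr11:43901238-43901487 for the upstream start and chr11:43836490-43836739 for the downstream start. Capitals mark matches, on either strand, to any of 6 short motifs, a list that was written after these sequences had been read, with TGAGTCA noticed first by eye.
Adra1b upstream start: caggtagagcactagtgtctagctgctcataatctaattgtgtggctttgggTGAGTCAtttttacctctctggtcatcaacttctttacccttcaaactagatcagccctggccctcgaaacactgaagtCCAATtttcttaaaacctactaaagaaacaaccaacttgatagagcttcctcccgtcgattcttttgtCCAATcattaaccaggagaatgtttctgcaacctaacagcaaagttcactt
Adra1b downstream start: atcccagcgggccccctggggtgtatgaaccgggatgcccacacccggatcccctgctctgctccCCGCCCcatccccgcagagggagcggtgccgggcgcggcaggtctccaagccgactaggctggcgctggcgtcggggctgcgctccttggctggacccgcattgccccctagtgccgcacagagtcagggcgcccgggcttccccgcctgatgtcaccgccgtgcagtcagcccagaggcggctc

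The upstream start held TGAGTCA (an AP-1 site) 198 bases before the start and CCAAT 119 and 51 bases before it. The downstream start held GGGCGG (GC box), read on the other strand, 185 bases before it. The windows had a GC content of 41.6% and 72.8%. Neither held TGACG (cAMP response element half-site), CACGTG (E-box) or AGAACA (steroid receptor half-site). Of 32851 promoters of the same length, TGAGTCA was in 4.46%, CCAAT in 33.8%, GGGCGG in 32.7%, TGACG in 17.8%, CACGTG in 6.02% and AGAACA in 16.1%. The Adrb1 promoter held TGACG 90 bases, CCAAT 106 bases and GGGCGG 202 bases before its start, that of Adra2b held CCAAT and GGGCGG, and that of Grk5 held none of the 6. A match is a description of letters, not a site or a cause, and no array value bears on it.

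Adra1a encodes the other alpha1 receptor measured among the members, also coupled to Gq. Its brighter probe (A_51_P447229) averaged -2.25 ± 0.05 in male PBS, -2.27 ± 0.21 in male meth, -2.50 ± 0.08 in female PBS and -2.60 ± 0.15 in female meth. Neighbouring groups in this order overlapped. The difference between meth and PBS was -0.02 in males (-0.25 to 0.21) and -0.10 in females (-0.35 to 0.14). The second probe (A_52_P424778) gave -0.03 in males (-0.27 to 0.21) and 0.29 in females (0.04 to 0.55, adjusted p = 0.358). The female value was 0.04 on slide 1, 0.60 on slide 2 and 0.20 on slide 4, and 0.16 without female PBS replicate 2. Its means were -2.46 ± 0.33 in male PBS, -2.49 ± 0.28 in male meth, -2.75 ± 0.13 in female meth and -3.05 ± 0.23 in female PBS. The female meth and PBS values did not overlap, and the other neighbours in this order did. It was the only 1 of 14 member probes without overlap between female meth and PBS, against 9.07% of all probes, and in males 0 of 14 were without overlap, against 9.86%.

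Between male and female PBS hearts, 0 of 7 member genes passed the test by their brightest probe (limma), against 0.48% of all probes, and 2 of 7 genes had an unadjusted p under 0.05, against 15.2% of all probes. By any probe, 1 of 14 passed, the second Adra1a probe, and 4 of 14 had an unadjusted p under 0.05. Its male PBS values were -2.15 and -2.24 in trial 1 and -2.59 and -2.87 in trial 2, and its female PBS values were -2.92, -3.31 and -2.91. All 4 males were above the 3 females, and the trial 2 males were nearest to them. The fitted difference was 0.83 (95% confidence interval 0.55 to 1.11, adjusted p = 0.0161). This value sets the females, labelled trial 1, against trial 1 males through the trial term. Without the trial term it was 0.58 (adjusted p = 0.241), the plain difference of the group means of -2.46 and -3.05. Within slides it was 0.77 on slide 1 and 1.07 on slide 2.

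The call of the second Adra1a probe rested on 3 PBS arrays. Leaving out trial 1 replicate 1 of the males gave 0.79 (adjusted p = 0.102), and leaving out their trial 1 replicate 2 gave 0.85 (adjusted p = 0.0632). Leaving out replicate 2 of the females gave 0.70 (adjusted p = 0.0549). The call was also lost with the trial as the source names give it (0.62, adjusted p = 0.1), with another background correction (0.47, adjusted p = 0.519) and with male arrays of trial 1 alone (0.85, adjusted p = 0.0624). The brighter Adra1a probe differed by 0.29 (0.02 to 0.56, adjusted p = 0.301) between male and female PBS hearts. It read 0.27 higher in the male on slide 1 and 0.30 on slide 2. The Pearson r of the Adra1a probes over the 15 arrays was 0.64. For Adra1b the brighter probe differed by 0.59 (0.14 to 1.03, adjusted p = 0.213) and the second by 0.07 (-0.50 to 0.63). Without male PBS trial 1 replicate 1 the second probe gave 0.46, and without their trial 1 replicate 2 it gave -0.09.

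Male and female PBS values did not overlap for 4 of the 14 member probes, against 14.7% of all probes. These were both Adra1a probes and the brighter Adra1b probe, higher in males, and the brighter Grk5 probe, lower in males. Of 46 tested markers of cell types, 1 passed between male and female PBS, the airway marker Scgb1a1, lower in males. It was well above background on 2 of 4 male PBS arrays, and its call was lost with another background correction (adjusted p = 0.0713). At an unadjusted p under 0.05 there were 16 of the 46 markers (34.8%), against 15.2% of all probes. The summed level of 4 atrial markers, with Nppa the brightest probe, was 947 ± 150 in male PBS, 660 ± 82.0 in female PBS, 1120 ± 127 in male meth and 852 ± 109 in female meth (linear signal relative to the 75th percentile). All 4 atrial markers were well above background on every array, none passed the test, and their median difference between male and female PBS was 0.52, against 0.01 over all genes. The median difference was 1.17 for 4 brown fat markers and 0.87 for 5 tested white fat markers, of which none passed. The summed level of 6 cardiomyocyte markers, with Myl2 the brightest probe, was 2580 ± 136 in male PBS and 2190 ± 292 in female PBS. The summed level of the brown fat markers, with Cox8b the brightest probe, ran from 73.0 to 525 in male PBS and from 355 to 488 in female PBS. The value of 73.0 was that of male PBS trial 1 replicate 1, and the other male PBS arrays read 419 to 525. The part of tissue composition in the Adra1a and Adra1b differences was not tested.

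**Figure D3:**
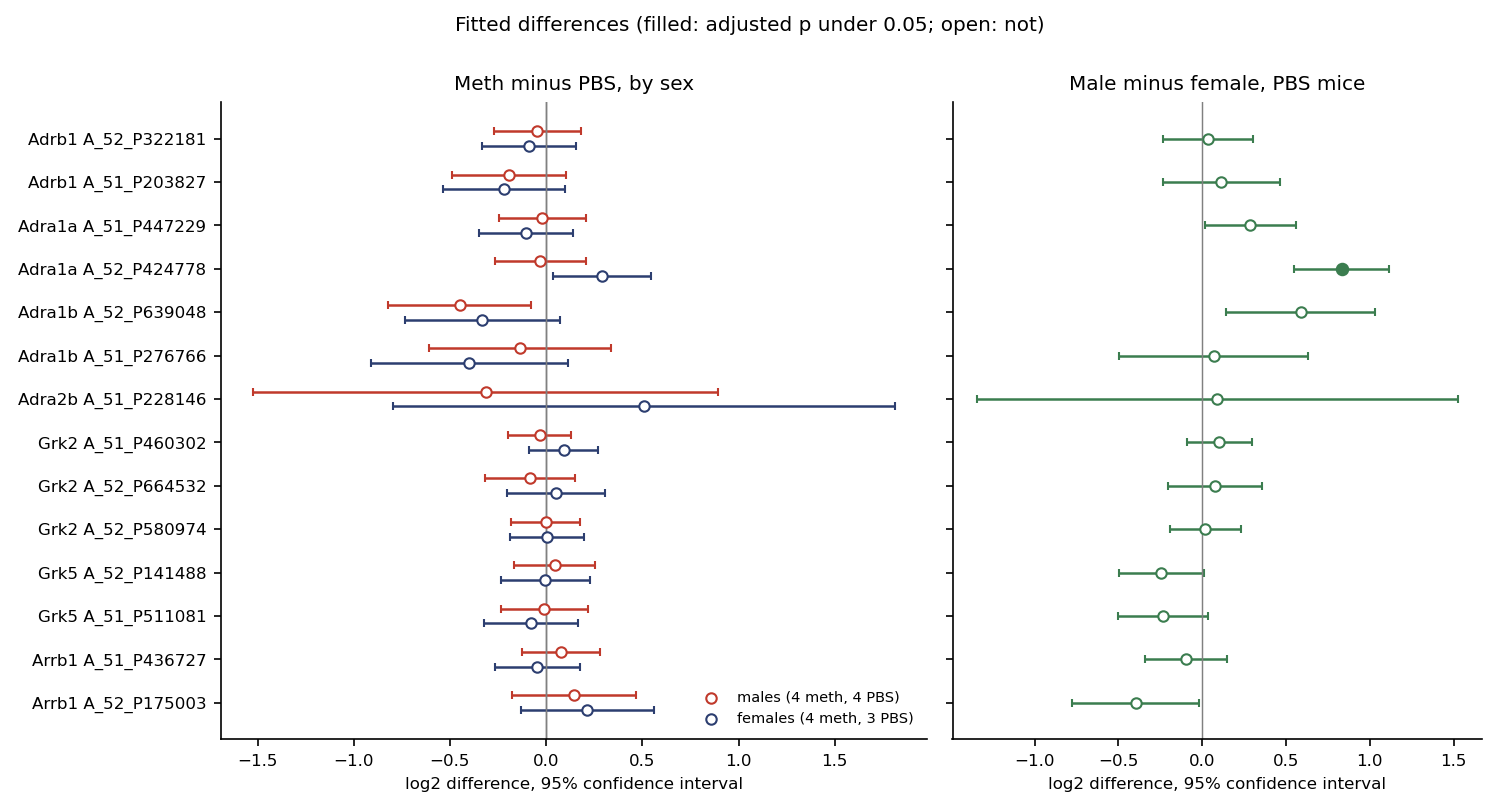
Fitted log2 differences with 95% confidence intervals for the 14 probes, between meth and PBS in each sex at the left and between male and female PBS mice at the right. Filled points have an adjusted p under 0.05, which holds for Adra1a A_52_P424778 between the sexes (0.83), and that call is lost without any of 3 PBS arrays. The Adra2b points rest mostly on values not well above background.

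Adra2b encodes an alpha2 receptor, a class that couples to Gi and lowers cAMP. Its probe was well above background on 1 of 4 male meth, 1 of 4 male PBS, 3 of 4 female meth and 1 of 3 female PBS arrays. The levels ran from -6.79 to -3.72, with both extremes in female meth. Its means and fitted differences, drawn in the figures, rest mostly on values not well above background and are not described.

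Grk2, the kinase that binds free G beta-gamma subunits and phosphorylates beta receptors in the heart, had 3 probes. The brightest (A_51_P460302) averaged 2.21 ± 0.11 in female meth, 2.12 ± 0.12 in female PBS, 2.07 ± 0.23 in male PBS and 2.04 ± 0.13 in male meth, and neighbouring groups overlapped. Male PBS hearts read 2.24 and 2.30 in trial 1 and 1.87 and 1.87 in trial 2. Male meth hearts read 2.18 and 2.11 in trial 1 and 1.95 and 1.90 in trial 2. The males were thus higher in trial 1 than in trial 2 under either treatment, a difference that was not tested. The difference between meth and PBS was -0.03 in males (-0.20 to 0.13) and 0.09 in females (-0.09 to 0.27). The other probes (A_52_P664532 and A_52_P580974) gave -0.08 and -0.002 in males and 0.05 and 0.01 in females. The Pearson r between pairs of Grk2 probes was 0.08, 0.31 and -0.12, so the probes did not vary together.

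Grk5, a kinase held at the membrane that can also enter the nucleus, averaged 1.04 ± 0.08 in female PBS, 1.04 ± 0.17 in female meth, 0.88 ± 0.08 in male meth and 0.84 ± 0.15 in male PBS (A_52_P141488). Neighbouring groups overlapped. The difference between meth and PBS was 0.04 in males (-0.17 to 0.26) and -0.004 in females (-0.23 to 0.23). Male PBS hearts read 0.65, 0.80, 0.94 and 0.97, and female PBS hearts 0.98, 1.02 and 1.14. The male values were all lower, with the closest pair at 0.97 and 0.98, and the fitted difference was -0.24 (-0.50 to 0.01, adjusted p = 0.341). The second probe (A_51_P511081) gave -0.01 in males (-0.23 to 0.22) and -0.08 in females (-0.32 to 0.16) between meth and PBS. It gave -0.24 between male and female PBS as well (adjusted p = 0.386), and the Pearson r of the probes was 0.87.

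Arrb1 encodes beta-arrestin 1. Its brighter probe (A_51_P436727) averaged 2.46 ± 0.11 in female PBS, 2.41 ± 0.19 in female meth, 2.41 ± 0.08 in male meth and 2.33 ± 0.07 in male PBS, and neighbouring groups overlapped. The difference between meth and PBS was 0.08 in males (-0.13 to 0.28) and -0.05 in females (-0.27 to 0.17). The second probe (A_52_P175003) gave 0.15 in males (-0.17 to 0.47) and 0.21 in females (-0.13 to 0.56), and -0.40 between male and female PBS (adjusted p = 0.311). With an array left out, its male value ran from 0.07 to 0.24 and its female value from 0.08 to 0.42. With another background correction the male value was -0.03. The Pearson r of the Arrb1 probes was -0.02, so a level of one probe did not follow the other.

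The genes whose brightest probes varied most like those of the members over the 15 arrays were taken from 12601 genes well above background on every array. For Adra1b they were Mapk14 (Pearson r = 0.96), Zbtb25 (0.95) and Plin5 (0.94). For Adra1a they were Lama5 (0.93), Slc27a1 (0.89) and Nrde2 (0.89), and for Adrb1 Zbtb49, Bend4 and D830031N03Rik (each 0.91). For Grk2 they were Lgals1 (0.92), Tmem134 (0.90) and Chrne (0.90), for Grk5 Umps (0.87) and Tdrd3 (0.82), with 1 more gene not used here, and for Arrb1 Cotl1 (0.92), Marchf1 (0.92) and Foxc1 (0.87). The arrays share slides, trials and sexes, so these values describe the arrays as they fell. The members also share position in part: Adrb1, Grk2 and Grk5 lie on chromosome 19, and Adra1b and Arrb2 on chromosome 11.

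Around the members, 87 genes of adrenergic signalling were listed in 10 groups, of which 85 had a probe and 82 were tested. In males 0 of 82 passed the test between meth and PBS (limma), beside 1.11% of all probes, with 9 at an unadjusted p under 0.05 (11.0%, beside 12.8% of all probes). In females 1 passed, lower in meth, beside 0.758%, with 8 at an unadjusted p under 0.05 (9.76%, beside 11.0%). Over both sexes 1 passed, also lower, beside 2.65%, with 13 at an unadjusted p under 0.05 (15.9%, beside 15.3%). The difference in response and the difference between male and female PBS passed for 0 of 82 genes, beside 0.138% and 0.48% of all probes. At an unadjusted p under 0.05 there were 4 (4.88%, beside 8.67%) and 14 (17.1%, beside 15.2%). The median log2 difference over both sexes was 0.03 for the listed genes and 0.00 for all genes.

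The gene that passed was Akap5, which anchors protein kinase A near receptors and channels at the membrane (A_52_P1042732). Female meth hearts read -1.33, -1.26, -1.49 and -1.51, and female PBS hearts -0.53, -0.33 and -0.76. Male meth hearts read -0.76, -1.22, -0.86 and -1.03, and male PBS hearts -0.31, -0.48, -0.96 and -0.85, with the last pair of each from trial 2. The female groups were apart, and the male groups overlapped in trial 2. Akap5 fell by 0.86 on the log2 scale in females (adjusted p = 0.0283) and fell by 0.59 over both sexes (adjusted p = 0.0109), and in males the difference was -0.32 (adjusted p = 0.36). The male and female responses of Akap5 differed by 0.54 (0.09 to 0.98, adjusted p = 0.532), which did not pass.

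The female Akap5 call was lost when any of 5 arrays was left out. The adjusted p was 0.051, 0.0666 and 0.0672 without replicates 1, 3 and 4 of the meth females, and 0.0992 and 0.148 without replicates 1 and 2 of the PBS females. The female call was kept in 6 of 16 other settings. With the replicate number as a block it was -0.82 (adjusted p = 0.0823), with another background correction -0.55 (adjusted p = 0.445), without slide 4 -0.86 (adjusted p = 0.162) and without the trial term -0.86 (adjusted p = 0.0561). It was also lost with the median shift, without the filter, with females fitted alone, without the trial 2 males and with the test of the study's methods. The call over both sexes was kept in 15 of 15 fits that left out an array, between -0.64 and -0.52, and was lost with another background correction (-0.40, adjusted p = 0.155), with male arrays of trial 2 alone (-0.45, adjusted p = 0.0785) and without slide 4 (-0.59, adjusted p = 0.0507).

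Among the other receptors, Adra1d gave -0.46 in males and -0.25 in females (adjusted p = 0.447 and 0.821), with the female value at -0.44 without female meth replicate 3, and Adra2c was well above background on 3 of 4 male meth, 0 of 4 male PBS, 2 of 4 female meth and 1 of 3 female PBS arrays, so its fitted difference, drawn in the figure of the lists, is not described. No probe of Adra2a reached the filter. The arrestin-like genes Arrdc4 and Arrdc2 gave -0.33 and 0.28 over both sexes (adjusted p = 0.462 and 0.425). Arrdc2 averaged -1.64 in male meth and -2.18 in male PBS, and -1.75 in female meth and -1.78 in female PBS. Of the G protein subunits, Gng2 gave 0.33 (adjusted p = 0.161). Gnb2 gave -0.74, from a value of -3.24 in female meth replicate 1 beside 2.99 to 3.15 in the other female meth hearts, and without that array it gave 0.05.

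The main cyclases of heart muscle, Adcy5 and Adcy6, gave 0.10 and 0.09 over both sexes (adjusted p = 0.709 and 0.581). Prkar2b, a regulatory subunit of protein kinase A, gave 0.70 (adjusted p = 0.235). Ppp1r1a, an inhibitor of protein phosphatase 1, gave 0.36 (adjusted p = 0.12), and the cAMP phosphodiesterase Pde3b gave 0.33 (adjusted p = 0.385). The Pde3b value joins unlike sexes. Its means were -1.73 in male meth and -1.69 in male PBS, and -1.31 in female meth and -2.01 in female PBS. Among RGS proteins, which speed the shut-off of G proteins, Rgs6 gave 0.21 (adjusted p = 0.105) and Rgs5 -0.20 (adjusted p = 0.596). Of the effectors of Gq, Prkcd gave 0.16 and Itpr1 -0.14 (adjusted p = 0.619 and 0.464). In the muscarinic list, Kcnj3, a subunit of the potassium channel opened by acetylcholine, gave 0.16 and Chrm2, the main muscarinic receptor of the heart, -0.10 (adjusted p = 0.437 and 0.597).

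Of the genes known to respond to cAMP, the nuclear receptor gene Nr4a1 gave -0.67 over both sexes (-1.14 to -0.21, adjusted p = 0.134). Male PBS hearts read 3.34 and 3.65 in trial 1 and 2.70 and 2.08 in trial 2, and male meth hearts 2.40, 1.86, 2.67 and 2.03. Trial 1 meth males were below trial 1 PBS males, and in trial 2 the values interleaved. Female PBS hearts read 3.14, 2.75 and 2.79, all above the female meth hearts at 2.28, 2.69, 2.32 and 1.73. Dusp1 gave -1.03, from a value of -5.83 in female meth replicate 1 beside 1.43 to 1.98 in the other female meth hearts, and without that array it gave -0.08.

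**Figure D4:**
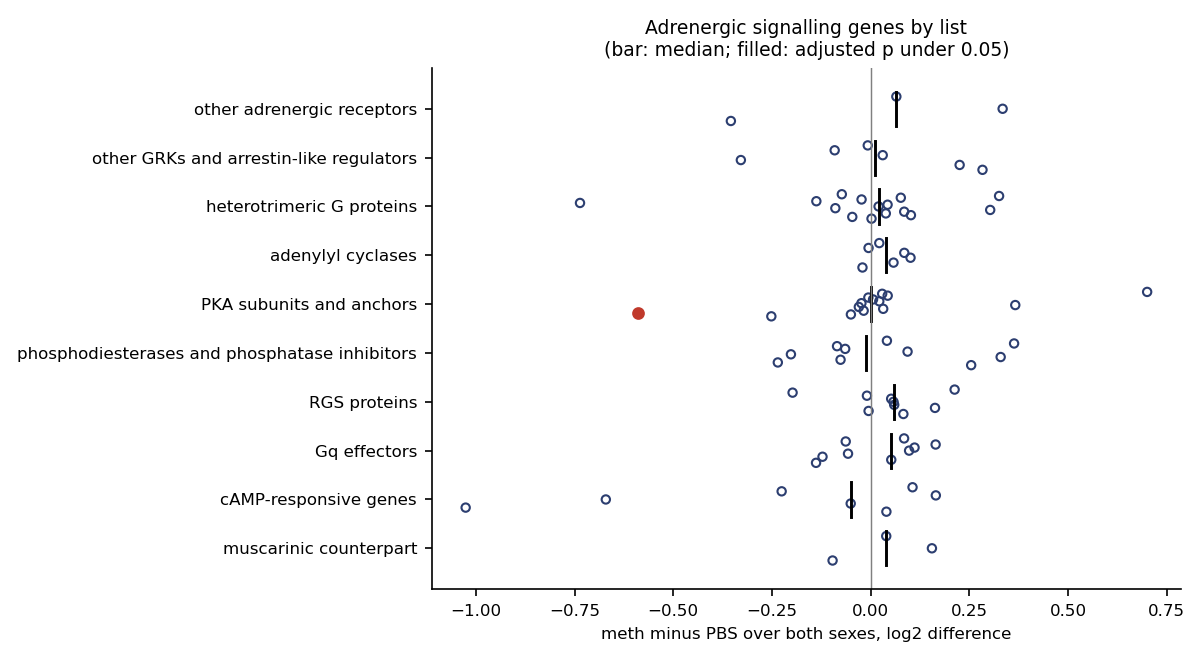
Fitted log2 difference between meth and PBS over both sexes for each of the 82 tested genes of adrenergic signalling, by list, with the list's median as a bar. The filled point is Akap5 (-0.59, adjusted p = 0.0109, lost in 3 of 14 other settings), and the points of Gnb2 (-0.74) and Dusp1 (-1.03) each rest on female meth replicate 1.

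Markers of other cell types were read beside these results, with 51 genes listed, 49 with a probe and 46 tested. Between meth and PBS, 4 of the 46 passed in males, 2 in females and 6 over both sexes (limma). The shares of all probes were 1.11%, 0.758% and 2.65%. At an unadjusted p under 0.05 there were 9 (19.6%), 12 (26.1%) and 15 (32.6%), beside 12.8%, 11.0% and 15.3% of all probes. All 6 cardiomyocyte markers were well above background on every array, and their summed level was 2440 ± 161 in male meth and 2270 ± 166 in female meth. Of the airway markers Scgb1a1, Bpifa1, Foxj1 and Reg3g, 4 of 4 rose in male meth, 2 in female meth (Bpifa1 and Reg3g), and 4 passed for the mean of both sexes. Bpifa1, Foxj1 and Reg3g met the filter through meth arrays alone. Without the filter these calls were kept except that of Reg3g in females. With another background correction Foxj1 lost its call in males (0.53, adjusted p = 1.0) and over both sexes (0.40, adjusted p = 0.76), and in males also with the test of the study's methods in either form, where the paired form ended all 4. The mean of both sexes joins unlike values for Scgb1a1, which averaged -0.92 in female meth and 0.56 in female PBS (difference -1.48, adjusted p = 0.311), and for Foxj1, which was well above background on 0 arrays of either female group. Their summed level was 58.4 ± 46.4 in male meth, 0.0502 ± 0.0146 in male PBS, 1.24 ± 0.882 in female meth and 1.59 ± 0.651 in female PBS. The brightest probe was that of Bpifa1 in male meth and that of Scgb1a1 in the other groups. In male PBS, Bpifa1, Foxj1 and Reg3g were well above background on 0 of 4 arrays and Scgb1a1 on 2, so no fold is given. The female call of Bpifa1 was lost without female PBS replicate 1 (adjusted p = 0.0569), and that of Reg3g in 12 of 15 fits that left out an array. Among 15 other settings, the female call was kept in 9 for Bpifa1 and 5 for Reg3g, and the replicate block ended both.

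Of 5 tested markers of white fat, 2 passed over both sexes, beside 2.65% of all probes. Retn, a hormone gene of fat cells, rose by 1.62 (adjusted p = 0.0139), and Cidec, a lipid droplet gene, rose by 1.28 (adjusted p = 0.0236). Cidec lost the call without female PBS replicate 1, male meth trial 2 replicate 1 or male PBS trial 2 replicate 1, with an adjusted p of up to 0.0663. Among 14 other settings the call was kept in 10 for Retn and 8 for Cidec. Both lost it with the replicate block, with male arrays of either trial alone and without slide 4, and Cidec also with another background correction and without the trial term. The summed level of the white fat markers, with Fabp4 the brightest probe, ran from 179 to 292 in male meth, 161 to 220 in male PBS, 155 to 258 in female meth and 140 to 193 in female PBS. Of the sympathetic nerve and Schwann cell markers 3 of 5 were tested and none passed in any comparison, while Th did not reach the filter. The 4 endothelial markers, well above background on every array with Kdr the brightest probe, had a median difference of -0.11 over both sexes, and none passed. Their summed level in males was 24.0 in meth and 22.3 in PBS on slide 1, 21.8 and 24.2 on slide 2, and 21.0 and 21.8 in meth beside 27.3 and 28.5 in PBS in trial 2. In females it was 24.0 and 25.4 on slide 1, 23.1 and 28.0 on slide 2, and 20.9 and 21.0 in meth beside 23.7 in PBS on slide 4. It was thus lower in meth in all but the slide 1 males. The fitted differences of the single endothelial markers ran from -0.34 to 0.07 in males and from -0.28 to -0.07 in females. The 3 red blood cell markers had a median difference of 0.46 in males, 0.83 in females and 0.60 over both sexes, and none passed. For the 4 atrial markers the median was 0.10 in males, 0.37 in females and 0.29 over both sexes. All 4 were higher in meth in each sex. For the 4 brown fat markers it was 0.03, 0.44 and 0.30. None of the atrial or brown fat markers passed. No test was run of the part of any of these cells in the values of the adrenergic genes.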

How the data were processed

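RNA from 15 mouse hearts was hybridized to Agilent 1-colour arrays. Per the file headers, the authors' scanner files hold the processed signal intensity of each spot, with background subtracted. The deposited value table of the authors holds log2 signals shifted to each array's 75th percentile and matched them up to a constant for each array. Agilent Feature Extraction is given as version 9.1 in the submitters' notes and as 10.5.1.1 in the file headers. The genome annotation behind the probe accessions is not given in the sources used here.

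From the scanner files, log2 of the processed signal minus the array's 75th percentile over non-control probes was taken, with outlier spots set to missing and replicate spots of a probe combined. A probe was kept when the scanner called it well above background on 3 or more of the 15 arrays (28358 of 41174). A limma fit (3.58.1, R 4.3.3) had the 4 groups and the trial of the sample title, with Benjamini-Hochberg adjustment over all probes kept, a threshold of 0.05 and 95% confidence intervals. The fit was also run on simulated data, with independent arrays, no slide effect and a planted change larger than any fitted member difference. That run does not show how the fit behaves with shared slides or with differences as small as those of the members. The source names place female meth replicates 3 and 4 and female PBS replicate 3 in trial 2, against their titles. Tables were made with pandas 2.3.3 and numpy 2.4.6, and figures with matplotlib 3.10.9. The number of arrays limits the precision.

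Over 23808 probes, meth and PBS arrays with the same replicate number correlated, after their group means were removed, at 0.33 and 0.27 (male trial 1), 0.26 and 0.40 (male trial 2) and 0.30, 0.44 and 0.66 (females). Such arrays share a slide. Pairs with other numbers correlated as highly within a trial, at 0.33 and 0.365 (male trial 1), 0.30 and 0.33 (male trial 2) and, for replicates 1 and 2 of the females, 0.63 and 0.54, and 0.63 for female meth replicate 4 with PBS replicate 3. The female arrays of slide 4 correlated at -0.65 to -0.31 with those of slides 1 and 2 in the other treatment, and males at -0.38 to -0.23 across trials. Deviations from a group mean cancel within the group, so positive values within a slide or trial bring negative values elsewhere. The negative values are therefore not a separate observation. Those slide 4 females are the ones whose source names give trial 2, and the fit has them in trial 1. The check thus does not single out the replicate number. The fit has no slide term. A fit with the replicate block and a fit with the slide as a fixed block were run beside it. With the slide block the brighter Adra1b probe gave -0.36 over both sexes (limma, adjusted p = 0.107).

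The members and lists were chosen with earlier results of these data known. Named from the lists were genes past the threshold and, from each list, the 2 with the largest absolute difference over both sexes. For each member on all arrays, the 3 genes with the highest Pearson r were named. Nr4a1, Akap5 and the members with values on each array were picked for that after their values were seen. Of the 11 types of cell markers, only the endothelial sums are given slide by slide.

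A comparison of male with female meth hearts was also fitted. It was not part of the design, and it was left out of the report after its values had been seen. It called 744 of all probes (2.62%) and 1 member probe, Adra1a A_52_P424778 (0.51, adjusted p = 0.0478). That call was kept in 2 of 15 fits that left out an array and in 3 of 12 other settings.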

Additional observations from a re-analysis of the deposited data

Results flagged for a closer look

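Among 120 groups of 4 arrays, 6 had a value far from the other 3, and chance gives about 1 in 20 such groups. None was among the 42 groups of the member probes. In female meth replicate 1, Gnb2 read -3.24 and Dusp1 -5.83, where the other female meth hearts read 2.99 to 3.15 and 1.43 to 1.98. In male PBS trial 2 replicate 1, Adcy5 read 0.08 beside -0.11 to -0.08, Gnb2 read 2.89 beside 2.98 to 3.00 and Bpifa1 read -7.49 beside -7.25 to -7.22. Adra1d read -1.97 in female meth replicate 3, beside -2.82 to -2.71. Without that array the Adra1d difference over both sexes went from -0.35 to -0.45 (adjusted p = 0.179) and that in females from -0.25 to -0.44.

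The male and female responses to meth differed for 3 airway markers by the interaction test (limma). The fitted difference between the responses was 10.77 for Scgb1a1, 7.35 for Bpifa1 and 3.37 for Foxj1. These values are not sizes of a response, because male PBS arrays were well above background on 2 of 4 for Scgb1a1 and 0 of 4 for Bpifa1 and Foxj1, and Foxj1 was so on 0 female arrays. Bpifa1 and Foxj1 met the filter through meth arrays alone, and without the filter all 3 calls were kept. The calls were kept in 15 of 15 fits that left out an array. Among 13 other settings they were kept in 12 for Scgb1a1, 9 for Bpifa1 and 8 for Foxj1. All 3 were lost with the replicate block (Scgb1a1 adjusted p = 0.0502), Bpifa1 and Foxj1 also with male arrays of either trial alone and without slide 4, and Foxj1 with another background correction (0.25, adjusted p = 1.0). No response of a member gene differed between the sexes by that test.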

How the results depend on the processing

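In the comparisons of meth with PBS in males, in females and over both sexes, and in the difference in response, 0 member probes passed under any setting tried. The count of all probes called moved more. It ran from 0 (the methods' paired test) to 525 in males, 0 to 411 in females and 111 to 1253 over both sexes, and from 0 (replicate block) to 51 for the difference in response. Each of these highest counts came from a fit with the slide as a fixed block. The main fit, without a slide term, called 314, 215, 751 and 39. Leaving out an array gave 119 to 309, 38 to 205, 402 to 746 and 28 to 49. Between male and female PBS, 0 or 1 member probes passed, with all probes from 21 to 236 (42 to 153 leaving out an array). With each gene given by the mean of its tested probes, 1 member gene passed there, Adra1a, where 0 passed by the brightest probe. Both Adra1a probes enter that mean. The cause of the other changes was not tested.

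The replicate block gave -0.33 (adjusted p = 0.24) for Adra1b over both sexes, changed no call of a member and took the count for the difference in response to 0. It gives no value between male and female PBS. Of 2130 recomputed log2 differences of members, 161 had another sign than the reported one, each between values past no threshold. The fits without slide 4 were added after the data were seen. Shifting arrays by the median moved the median of all probes for the difference in response to -0.12. The 15 arrays and the low signal of Adra2b limit what can be seen.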
